A study of Homo sapiens with 31 samples.

Results

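The 42 genes described here carry out homologous recombination, the copying of an intact DNA strand to mend a broken chromosome, or belong to the Fanconi anaemia pathway, which removes crosslinks between DNA strands. They were chosen by name from knowledge of the 2 pathways and were looked up in a table of 19221 genes, in which all 42 were found. The table holds poly(A) RNA-seq values of 31 libraries from 4 groups. The groups C13* shCON with 7 libraries and C13* shCEBPB with 8 are labelled as C13* cells. They carried a lentivirus with a control short hairpin RNA or with a short hairpin RNA against CEBPB, the gene of the transcription factor C/EBPβ. The paper uses C13* as an ovarian cancer cell line resistant to cisplatin, and concedes that its use is open to question given its origin. A2780 (n = 8) is labelled as the parent line. The paper uses it as an ovarian cancer cell line and reports that it responds to the PARP inhibitor olaparib. A2780 OlaR (n = 8) is labelled as its olaparib-resistant derivative, which the study's methods say was raised over months in rising olaparib. Only 1 group carries the hairpin against CEBPB and only 1 is labelled as olaparib-resistant. The paper reports that C13* cells too tolerated olaparib better than A2780 cells. The labels and methods do not say how the libraries of 1 group were separated beyond calling them biological replicates, so that p-values measure the spread between these libraries, which may be technical. Values are FPKM, fragments per transcript length and per mapped fragment, a level per length that can be set side by side between genes.

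A broken end is first trimmed to a single strand by the complex of RAD50 and NBN with the endonuclease cofactor RBBP8, and then by long-range nucleases and helicases. BRCA1 and its partners bring BRCA2 and PALB2 to the end, where the recombinase is loaded, and the recombinase paralogs help its filament. The joined strands are afterwards dissolved by BLM with TOP3A, RMI1 and RMI2, or cut by nucleases such as MUS81 with EME1. In the Fanconi pathway a core complex with the ubiquitin ligase FANCL and the conjugating enzyme UBE2T marks FANCD2 and FANCI at a crosslink, and USP1 removes the mark. Cells that lack this machinery are known to be sensitive to PARP inhibitors and to platinum.

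The libraries were compared with their labels before the members were examined, and the labels and the values were at odds in some groups. The C13* shCON and A2780 OlaR libraries, which are labelled as different cell lines, had nearly the same expression over all genes, with a Pearson's r of group means of log2(FPKM + 1) of 0.9961. The 2 groups labelled C13* had an r of 0.8897, and A2780 and A2780 OlaR had an r of 0.8555. The epithelial adhesion gene EPCAM averaged 110.7 FPKM in shCON and 115.7 FPKM in A2780 OlaR against 0.567 FPKM in shCEBPB and 1.20 FPKM in A2780. TP63, KRT5, KRT19 and CDH1 had the same division. The simple epithelial keratins KRT7, KRT8 and KRT18 did not, since they were higher in shCEBPB than in shCON (582.8 against 8.03, 881.8 against 459.4 and 535.1 against 319.8 FPKM). In A2780 and A2780 OlaR, KRT7 averaged 0.0626 and 9.66 FPKM, KRT8 5.90 and 482.9 FPKM and KRT18 81.4 and 291.1 FPKM. VIM, the mesenchymal intermediate filament, averaged 809.4 FPKM in A2780, 342.0 FPKM in shCEBPB, 9.82 FPKM in shCON and 0.16 FPKM in A2780 OlaR. ZEB1 was likewise high in A2780 and shCEBPB (14.5 and 6.55 FPKM against 0.507 and 0.536), but the mesenchymal markers SNAI2 and FN1 were lowest in A2780 (0.571 and 0.524 FPKM), and CDH2 was higher in shCON than in shCEBPB (17.35 against 7.56 FPKM). PTPRC, a leukocyte surface gene, averaged 85.9 FPKM in A2780 and was at 0 in every shCON library. The leukocyte marker CD68 went the opposite way, with 65.4 FPKM in shCON, 11.7 in shCEBPB, 2.22 in A2780 and 41.9 in A2780 OlaR. CD3E was at 0 in every library. PAX8, a marker of Mullerian epithelium, averaged 6.10 and 6.002 FPKM in shCON and A2780 OlaR and 0.536 and 0.555 FPKM in shCEBPB and A2780. WT1 had the division of PAX8 at low levels (0.819 and 0.615 against 0.0232 and 0.0272 FPKM). FOLR1 went the opposite way, at 886.8 FPKM in shCEBPB against 1.20 in shCON, 13.3 in A2780 and 0.91 in A2780 OlaR. MSLN was also highest in shCEBPB, at 153.5 FPKM against 30.7, 3.15 and 25.75, but like PAX8 it was higher in A2780 OlaR than in A2780. MUC16 had the same order of groups as MSLN at far lower levels. The background of the cells and the hairpin cannot be told apart in the first comparison below, nor the background and the resistance in the second. Every direction below is therefore between libraries as labelled. In bulk RNA, fewer cells of a type and less RNA per cell also cannot be told apart. One library, C13* shCON replicate 1, has the other cell line in its cell line field. Pairs of shCON libraries, this one included, had an r of 0.9962 to 0.9988, and all 42 members kept their side of the threshold without it.

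CEBPB, the target of the hairpin, was lower in shCEBPB. Its values ran from 75.2 to 100.7 FPKM in shCON (median 85.4) and from 30.2 to 58.7 FPKM in shCEBPB (median 49.5), so that no library of one group reached the other. Its log2 fold change was -0.87 (standard error, SE, 0.11; adjusted p = 1.42e-06, limma). In A2780 it averaged 99.7 ± 7.63 FPKM (SD, n = 8) and in A2780 OlaR 111.8 ± 11.6 FPKM (SD, n = 8), and the libraries overlapped. There CEBPB was higher in A2780 OlaR by 0.16 on the log2 scale (SE 0.06, adjusted p = 0.0202, limma; exact permutation test, two-sided, p = 0.0314).

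Most of the 42 members were lower in shCEBPB than in shCON. A gene was called where its adjusted p was under 0.05 in a limma fit of log2(FPKM + 1) over all genes tested, and all fold changes are on that scale. Of the members, 28 were lower and 11 higher, and 3 (RAD54L, RMI1 and UBE2T) did not pass. Among all 12006 genes tested, 84.7% were called, 45.7% lower and 38.9% higher, so that being called sets no gene apart here. The median log2 fold change was -0.37 over the members and -0.07 over all genes tested. In 28 members no library of one group reached the other group, against 66% of all genes. Only 5 members differed at least 2-fold on that scale, which is 11.9% of them, against 29.5% of all genes. This median differed between subsets of the libraries and with GC content. Within the libraries numbered 1 to 3 it was -0.15 and within those numbered 4 to 8 it was -0.48, and after a correction of every library for the GC content and length of the genes it was -0.20.

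In A2780 OlaR against A2780 the members went mostly the other way, with 29 higher, 10 lower and 3 (PALB2, FANCE and USP1) not past the threshold. Among all 12458 genes tested, 89.8% were called, 40.1% higher and 49.7% lower. The median log2 fold change of the members was 0.44, against -0.12 over all genes tested. The libraries did not overlap in 33 members, against 74.1% of all genes, and 15 members differed at least 2-fold, which is 35.7% of them and the same share as among all genes. In the libraries numbered 1 to 3 the members' median was 0.68, in those numbered 4 to 8 it was 0.45, and with the correction for GC content and length it was 0.61.

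**Figure D1:**
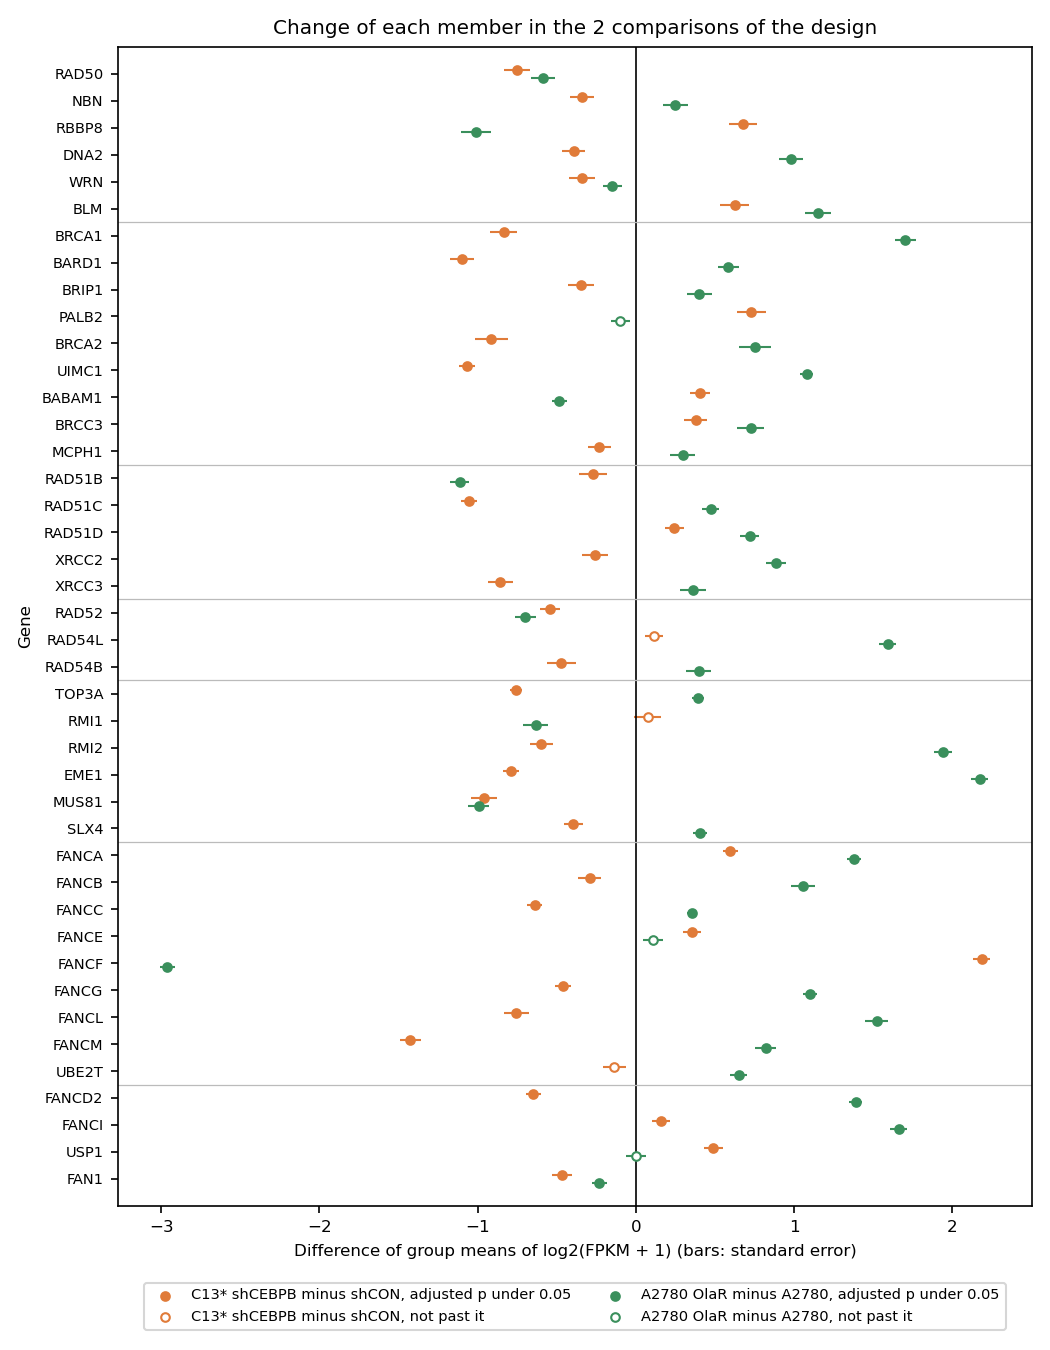
Log2 fold change of each of the 42 members (x axis, difference of group means of log2(FPKM + 1)) in C13* shCEBPB against C13* shCON (orange) and in A2780 OlaR against A2780 (green), with the standard error as bars, filled where the adjusted p is under 0.05 and open where it is not; grey lines part the 7 roles. FANCF lies farthest out on both sides, at 2.19 and -2.96, and most other members lie left of 0 in orange and right of 0 in green.

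FANCF was the member with the largest difference in both comparisons. It is a subunit of the Fanconi core complex that joins the other subunits to FANCM, and it is known as a gene that some ovarian tumours silence by methylation of its start; methylation was not measured here. In C13* shCON it ran from 0.0265 to 0.14 FPKM (median 0.101) and in A2780 OlaR from 0.0175 to 0.181 FPKM (median 0.108). In C13* shCEBPB it ran from 3.37 to 4.81 FPKM (median 3.97) and in A2780 from 6.35 to 8.32 FPKM (median 7.92). All 15 libraries of the first pair of groups were thus below 0.2 FPKM, and all 16 of the other pair were above 3 FPKM. On the log2 scale it differed by 2.19 in shCEBPB against shCON (SE 0.05, adjusted p = 5.13e-17, limma) and -2.96 in A2780 OlaR against A2780 (SE 0.05, adjusted p = 3.02e-21, limma). In each comparison the exact permutation test gave the smallest p that these libraries allow (two-sided, p = 1.55e-04). Because 1 FPKM was added before the logarithm, these fold changes understate the ratios of the mean FPKM, which were 45.0 and 68.6 (A2780 over A2780 OlaR). With 0.01 FPKM added in place of 1, the log2 fold changes were 5.50 and -6.16. Between shCON and A2780 OlaR the levels of FANCF overlapped (exact permutation test, two-sided, p = 0.387), and shCEBPB was below A2780 in every library.

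FANCF is a gene of 1 exon on chromosome 11 (hg38, 22622533 to 22625823, minus strand), and 315 of its 3291 bases are shared with exons of GAS2 on the opposite strand. FANCM (chromosome 14, 45135930 to 45200890, plus strand) is the member with the most negative difference in shCEBPB and shares no exonic base with another gene. Windows of 250 bases before the start were considered for members with the largest changes and opposite calls in the 2 comparisons. FANCF, UIMC1, BRCA1 and FANCM ranked first by the smaller of their 2 absolute log2 fold changes. Other members, such as EME1 and RBBP8, also differed in opposite directions. FANCF and FANCM are shown because they have the same start in RefSeq (GRCh38.p14, the source of the letters) and in GENCODE. Capitals mark CCAAT on either strand, the letters bound by the factor NF-Y. In GENCODE the FANCF window also lies in an exon of a GAS2 transcript on the opposite strand. The starts of UIMC1 and BRCA1 differ between the 2 sources, and their windows are not shown.
FANCF, chr11:22625824-22626073, minus strand: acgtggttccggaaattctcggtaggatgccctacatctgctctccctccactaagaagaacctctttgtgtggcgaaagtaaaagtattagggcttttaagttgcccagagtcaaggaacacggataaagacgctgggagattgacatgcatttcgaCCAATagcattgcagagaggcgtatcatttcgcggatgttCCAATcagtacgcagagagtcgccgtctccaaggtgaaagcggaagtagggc
FANCM, chr14:45135680-45135929, plus strand: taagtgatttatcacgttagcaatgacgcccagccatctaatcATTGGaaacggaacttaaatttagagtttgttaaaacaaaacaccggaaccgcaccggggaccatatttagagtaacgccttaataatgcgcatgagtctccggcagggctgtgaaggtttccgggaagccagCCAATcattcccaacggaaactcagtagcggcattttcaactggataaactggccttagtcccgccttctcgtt
Each window holds CCAAT 2 times, 92 and 52 bases before the start in FANCF and 207 and 74 bases before it in FANCM, and 14 CG pairs.

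**Figure D2:**
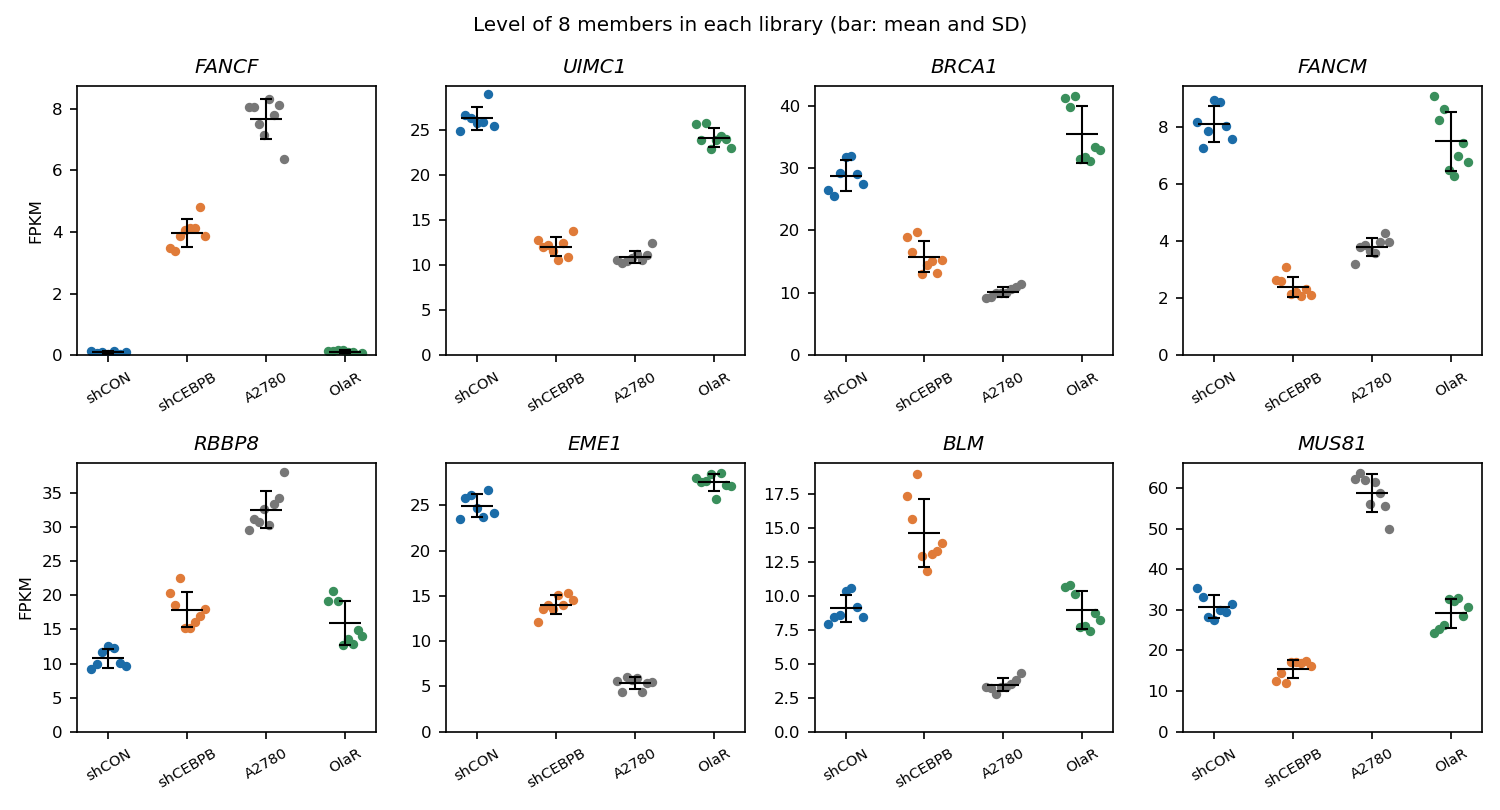
FPKM (y axis, linear from 0, a scale of its own in each panel) of 8 members in every library of C13* shCON, C13* shCEBPB, A2780 and A2780 OlaR (x axis); points are libraries, bars the mean and SD. FANCF lies near 0 in shCON and A2780 OlaR alone, and UIMC1, BRCA1, FANCM and EME1 are high in these 2 groups.

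The start of repair was split in both comparisons. Of the 6 genes that process broken ends, 4 were lower and 2 higher in shCEBPB, and 3 were higher and 3 lower in A2780 OlaR. RBBP8 (CtIP), which starts the trimming of an end, ran from 9.14 to 12.6 FPKM in shCON (median 10.0), from 15.2 to 22.5 in shCEBPB (median 17.5), from 29.7 to 38.1 in A2780 (median 32.0) and from 12.8 to 20.7 in A2780 OlaR (median 14.5). It was thus lowest in shCON and highest in A2780, each without overlap with any other group. RBBP8 was higher in shCEBPB by 0.68 on the log2 scale (SE 0.09, adjusted p = 1.16e-06, limma) and lower in A2780 OlaR, with a log2 fold change of -1.01 (SE 0.09, adjusted p = 4.51e-09, limma). The exact permutation p was 1.55e-04 in both. BLM, the helicase that unwinds ends and dissolves joined strands, was higher in the first-named group of both comparisons. It ran from 7.95 to 10.5 FPKM in shCON (median 8.60), from 11.8 to 19.0 in shCEBPB (median 13.6), from 2.76 to 4.34 in A2780 (median 3.31) and from 7.38 to 10.8 in A2780 OlaR (median 8.46). The log2 fold changes of BLM were 0.62 (SE 0.09, adjusted p = 4.98e-06, limma; exact permutation p = 1.55e-04) and 1.15 (SE 0.08, adjusted p = 6.61e-11, limma; exact permutation p = 1.55e-04).

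The other 4 genes of break processing were RAD50, NBN, DNA2 and WRN. RAD50, which tethers the ends, averaged 18.0 FPKM in shCON, 10.4 in shCEBPB, 25.4 in A2780 and 16.7 in A2780 OlaR, and was lower in both comparisons (log2 fold changes -0.75 and -0.59). Most of its exons, 8124 of 10565 bases, also belong to a second gene annotated on that strand, so that reads of the 2 cannot be told apart. NBN, its partner that recruits the damage kinase, averaged 17.8, 13.97, 13.5 and 16.4 FPKM in the same order of groups and was lower in shCEBPB (-0.34) and higher in A2780 OlaR (0.25). DNA2, a nuclease for long-range trimming, had means of 14.7, 11.0, 6.61 and 14.1 FPKM, with log2 fold changes of -0.39 and 0.98. WRN, a helicase and exonuclease, had means of 9.64, 7.45, 10.3 and 9.27 FPKM. Its log2 fold changes were -0.34 and -0.15, and the libraries overlapped in both comparisons. The calls of NBN and WRN were lost in some alternatives in both comparisons, and WRN's difference in A2780 OlaR turned positive with the correction for GC content and length (0.041).

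In the group of BRCA1 and its complexes, 6 of 9 genes were lower in shCEBPB and 7 of 9 were higher in A2780 OlaR. BRCA1 (chromosome 17, 43044295 to 43170245) ran from 25.6 to 31.9 FPKM in shCON (median 29.1), from 12.99 to 19.8 in shCEBPB (median 15.2), from 9.23 to 11.4 in A2780 (median 9.93) and from 31.2 to 41.6 in A2780 OlaR (median 33.1). Its A2780 level was below that of every other group, and its shCON and A2780 OlaR libraries overlapped at the top. The log2 fold change in A2780 OlaR was 1.70 (SE 0.07, adjusted p = 4.89e-15, limma; exact permutation p = 1.55e-04), and in shCEBPB it was -0.83. BARD1, with which BRCA1 forms its ubiquitin ligase, ran from 12.3 to 15.2 FPKM in shCON (median 13.9), from 4.97 to 7.56 in shCEBPB (median 5.55), from 8.22 to 10.2 in A2780 (median 9.51) and from 12.3 to 17.3 in A2780 OlaR (median 14.3). Its log2 fold change in shCEBPB was -1.10 (SE 0.08, adjusted p = 3.03e-10, limma; exact permutation p = 1.55e-04) and in A2780 OlaR 0.58. So BARD1 was lowest in shCEBPB where BRCA1 was lowest in A2780.

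UIMC1 (RAP80), which binds ubiquitin chains at breaks and holds the BRCA1-A complex there, divided the 4 groups into 2 pairs. It ran from 24.9 to 28.9 FPKM in shCON (median 25.9) and from 22.9 to 25.8 in A2780 OlaR (median 23.9). In shCEBPB it ran from 10.6 to 13.8 FPKM (median 12.1) and in A2780 from 10.2 to 12.4 (median 10.7). UIMC1 had a log2 fold change of -1.07 in shCEBPB (SE 0.05, adjusted p = 1.14e-12, limma; exact permutation p = 1.55e-04) and 1.08 in A2780 OlaR (SE 0.04, adjusted p = 1.44e-15, limma). PALB2, which links BRCA1 to BRCA2, stood apart in 1 group. It ran from 8.16 to 12.8 FPKM in shCEBPB (median 9.04), above every other library, and from 4.40 to 6.46 in shCON (median 5.61), 4.89 to 6.66 in A2780 (median 5.63) and 4.54 to 6.07 in A2780 OlaR (median 5.09). PALB2 was higher in shCEBPB by 0.73 on the log2 scale (SE 0.09, adjusted p = 8.72e-07, limma; exact permutation p = 1.55e-04). In A2780 OlaR its log2 fold change was -0.10 (adjusted p = 0.136, limma).

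BRCA2, which loads the recombinase, was among the lowest members, with means of 5.78, 2.65, 2.62 and 5.20 FPKM in shCON, shCEBPB, A2780 and A2780 OlaR. Its log2 fold changes were -0.91 and 0.75, and its libraries overlapped in neither comparison. BRIP1, a helicase bound to BRCA1, had means of 6.31, 4.78, 4.55 and 6.38 FPKM, with smaller changes in the same directions (-0.35 and 0.40) and overlapping libraries in both. MCPH1, a chromosome condensation and damage response gene, had means of 6.14, 5.10, 4.35 and 5.59 FPKM. It was lower in shCEBPB (-0.23) and higher in A2780 OlaR (0.29), again with overlap. Quantile normalization ended the MCPH1 call in shCEBPB (-0.05, adjusted p = 0.517, limma), libraries 1 to 3 alone turned its sign (0.023), and libraries 4 to 8 alone ended the call in A2780 OlaR (0.13, adjusted p = 0.0826, limma). BRIP1 lost its shCEBPB call with libraries 1 to 3 alone (-0.13, adjusted p = 0.136, limma). BABAM1 and BRCC3, both subunits of the BRCA1-A complex with UIMC1, did not go with it in shCEBPB, where they were higher. The scaffold BABAM1 averaged 41.9, 56.2, 71.5 and 50.9 FPKM (log2 fold changes 0.41 and -0.48), and BRCC3, which cuts ubiquitin chains, averaged 11.0, 14.7, 6.74 and 11.8 FPKM (0.38 and 0.73). Of the 2581 exonic bases of BABAM1, 850 are shared with other annotated exons on the same strand.

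Of the 5 recombinase paralogs, which stabilise the recombinase filament, 4 were lower in shCEBPB and 4 higher in A2780 OlaR. RAD51C, which takes part in both paralog complexes, ran from 30.4 to 33.6 FPKM in shCON (median 32.2), from 13.4 to 17.4 in shCEBPB (median 14.4), from 24.5 to 28.6 in A2780 (median 25.7) and from 32.2 to 43.2 in A2780 OlaR (median 35.0). Its libraries in shCEBPB were below all others. The log2 fold change of RAD51C was -1.05 in shCEBPB (SE 0.05, adjusted p = 1.69e-12, limma; exact permutation p = 1.55e-04) and 0.47 in A2780 OlaR. RAD51B went with A2780 instead. It ran from 10.9 to 14.3 FPKM in A2780 (median 12.4), against 4.01 to 6.24 in shCON (median 4.93), 3.21 to 4.83 in shCEBPB (median 3.86) and 4.26 to 6.34 in A2780 OlaR (median 5.15). In A2780 OlaR its log2 fold change was -1.11 (SE 0.06, adjusted p = 1.24e-12, limma; exact permutation p = 1.55e-04), and in shCEBPB it was -0.27 with overlapping libraries, a call that ended with quantile normalization (-0.06, adjusted p = 0.479, limma).

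The remaining paralogs were XRCC2, XRCC3 and RAD51D. With libraries 1 to 3 alone, XRCC2 and RAD51D were no longer called in shCEBPB (-0.02 and 0.16, adjusted p = 0.795 and 0.116, limma), nor XRCC3 in A2780 OlaR (0.02, adjusted p = 0.664, limma). XRCC2 averaged 12.5 FPKM in shCON, 10.4 in shCEBPB, 4.81 in A2780 and 9.72 in A2780 OlaR (log2 fold changes -0.26 and 0.88). For RAD51D the means were 8.35, 10.1, 5.89 and 10.3 FPKM, and it was the only paralog higher in both comparisons (0.24 and 0.72). Of the 11282 exonic bases of RAD51D, 1003 are shared with other annotated exons on the same strand. XRCC3 had means of 23.2, 12.4, 17.2 and 22.5 FPKM, with log2 fold changes of -0.86 and 0.36. Of its 7507 exonic bases, 5756 are shared with KLC1 on the opposite strand, and whether counting used the strand is not given in the sources used here.

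The 3 genes that pair strands or remodel the filament each had a pattern of their own. RAD54L, a motor that helps strand invasion, averaged 16.5, 17.97, 6.09 and 20.3 FPKM in shCON, shCEBPB, A2780 and A2780 OlaR. It was higher in A2780 OlaR by 1.59 on the log2 scale and had a log2 fold change of 0.11 in shCEBPB (adjusted p = 0.0686, limma). RAD52, which anneals single strands, was highest in A2780 without overlap, with means of 6.68, 4.28, 12.6 and 7.39 FPKM, and was lower in both comparisons (-0.54 and -0.70). The motor RAD54B, 3511 of whose bases are shared with FSBP on the same strand, had means of 7.54, 5.23, 5.29 and 7.32 FPKM and log2 fold changes of -0.47 and 0.40.

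The genes that dissolve or cut joined strands included the 2 largest positive differences of A2780 OlaR, those of EME1 and RMI2. EME1, the partner of the nuclease MUS81, ran from 23.4 to 26.6 FPKM in shCON (median 24.7), from 12.1 to 15.3 in shCEBPB (median 13.99), from 4.40 to 6.03 in A2780 (median 5.54) and from 25.7 to 28.5 in A2780 OlaR (median 27.6). It was 5.14 times higher in A2780 OlaR than in A2780 by the mean FPKM (log2 fold change 2.17, SE 0.05, adjusted p = 2.83e-18, limma; exact permutation p = 1.55e-04) and was lower in shCEBPB (-0.79). MUS81 itself went the opposite way to EME1 in A2780. It ran from 49.9 to 63.7 FPKM in A2780 (median 60.1), 27.6 to 35.4 in shCON (median 30.0), 11.9 to 17.4 in shCEBPB (median 16.5) and 24.2 to 32.9 in A2780 OlaR (median 29.6). It was lower in both comparisons, with log2 fold changes of -0.96 in shCEBPB and -0.99 in A2780 OlaR (SE 0.07, adjusted p = 3.96e-11, limma; exact permutation p = 1.55e-04). The means of MUS81 and EME1 were 58.7 and 5.36 FPKM in A2780, and nearer to each other in the remaining groups, such as 29.1 and 27.5 FPKM in A2780 OlaR. Of the 5448 exonic bases of MUS81, 770 are shared with exons on the opposite strand, among them those of CFL1.

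RMI2, a small subunit of the BLM dissolvasome, ran from 28.4 to 36.3 FPKM in shCON (median 32.4), from 17.7 to 25.3 in shCEBPB (median 19.97), from 9.54 to 13.1 in A2780 (median 11.6) and from 41.7 to 50.0 in A2780 OlaR (median 47.1). All 4 groups were apart from each other, which held elsewhere only for FANCA and FAN1. RMI2 had a log2 fold change of 1.94 in A2780 OlaR (SE 0.06, adjusted p = 3.50e-17, limma; exact permutation p = 1.55e-04) and -0.60 in shCEBPB. RMI1, the larger subunit of the same complex, was highest in A2780, with means of 5.98, 6.42, 10.4 and 6.39 FPKM in shCON, shCEBPB, A2780 and A2780 OlaR. Its log2 fold changes were 0.08 in shCEBPB (adjusted p = 0.409, limma) and -0.63 in A2780 OlaR, so that the 2 subunits differed in direction in A2780 OlaR. TOP3A, the topoisomerase of the complex, had means of 15.4, 8.74, 11.8 and 15.7 FPKM (-0.76 and 0.39), and the nuclease scaffold SLX4 had means of 5.74, 4.13, 4.50 and 6.28 FPKM (-0.40 and 0.40).

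**Figure D3:**
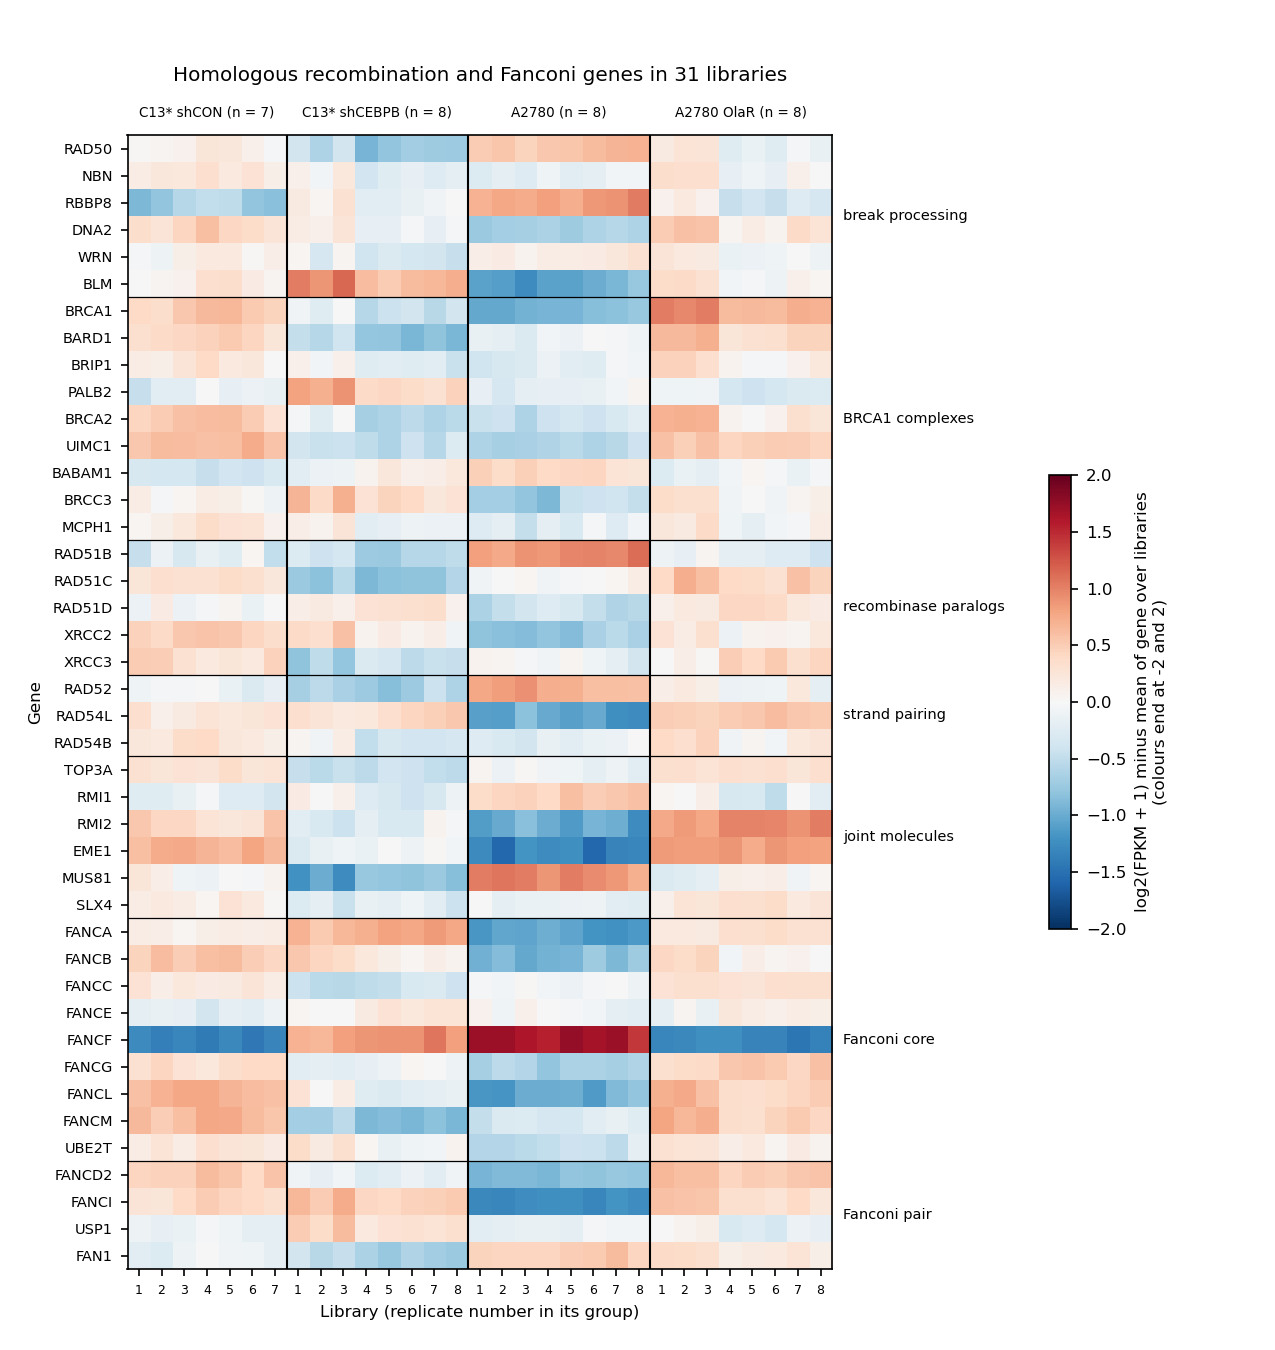
Log2(FPKM + 1) of each member (rows, ordered by role) in each of the 31 libraries (columns, numbered within their group), minus the mean of that gene over all libraries; red is above and blue below the mean, and colours end at -2 and 2. A2780 has the lowest mean in 21 members, seen as blue columns, and the columns of shCON and A2780 OlaR look alike.

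Of the 9 genes of the Fanconi core complex and its conjugating enzyme, 5 were lower and 3 higher in shCEBPB, and 7 were higher and 1 (FANCF) lower in A2780 OlaR. FANCM, the translocase that anchors the complex to DNA, ran from 7.25 to 8.96 FPKM in shCON (median 8.05), from 2.09 to 3.08 in shCEBPB (median 2.27), from 3.21 to 4.27 in A2780 (median 3.82) and from 6.30 to 9.09 in A2780 OlaR (median 7.21). Its log2 fold change was -1.43 in shCEBPB (SE 0.06, adjusted p = 3.90e-13, limma; exact permutation p = 1.55e-04) and 0.82 in A2780 OlaR. FANCM was thus high where FANCF was near 0. FANCL, the ubiquitin ligase, had means of 25.7, 14.9, 7.29 and 22.9 FPKM in shCON, shCEBPB, A2780 and A2780 OlaR and log2 fold changes of -0.75 and 1.52. FANCG and FANCA, which bind each other, parted in shCEBPB. The means of FANCG were 26.6, 19.1, 13.04 and 29.2 FPKM (-0.46 and 1.10), and those of FANCA were 19.0, 29.3, 7.55 and 21.2 FPKM (0.60 and 1.38). Of FANCA, 2409 exonic bases are shared with ZNF276 on the opposite strand.

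FANCB, a subunit in the module of FANCL, was the lowest member in A2780, with means of 5.74, 4.53, 1.54 and 4.32 FPKM and log2 fold changes of -0.29 and 1.06. Its shCEBPB call ended with quantile normalization (-0.10, adjusted p = 0.163, limma). FANCC and FANCE, which form a module with FANCF, did not have its pattern. The means of FANCC were 13.4, 8.27, 11.2 and 14.6 FPKM, and it was lower in shCEBPB (-0.64) and higher in A2780 OlaR (0.35). For FANCE the means were 8.11, 10.7, 9.13 and 9.92 FPKM, with a log2 fold change of 0.36 in shCEBPB and 0.11 in A2780 OlaR (adjusted p = 0.124, limma). UBE2T, the conjugating enzyme, was the highest member in 3 groups, with means of 89.8, 82.2, 55.4 and 87.4 FPKM. It was higher in A2780 OlaR (0.65), and in shCEBPB its log2 fold change was -0.14 (adjusted p = 0.0868, limma).

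FANCD2 and FANCI, the pair that the core complex marks, were both higher in A2780 OlaR. FANCI ran from 33.9 to 41.0 FPKM in shCON (median 37.7), from 37.9 to 48.0 in shCEBPB (median 40.5), from 10.9 to 11.9 in A2780 (median 11.5) and from 33.4 to 43.3 in A2780 OlaR (median 36.9). The log2 fold change of FANCI was 1.66 in A2780 OlaR (SE 0.05, adjusted p = 1.01e-16, limma; exact permutation p = 1.55e-04) and 0.16 in shCEBPB, with overlapping libraries. The small difference in shCEBPB was no longer called with quantile normalization (0.06, adjusted p = 0.42, limma), with libraries 4 to 8 alone (0.05, adjusted p = 0.404, limma) or with a replicate block (0.16, adjusted p = 0.0508, limma). For FANCD2 the means were 21.7, 13.5, 7.97 and 22.5 FPKM, with log2 fold changes of -0.65 and 1.39. USP1, which takes the ubiquitin off the pair, had similar means in 3 groups and a higher one in shCEBPB, with means of 35.6, 50.6, 35.6 and 35.9 FPKM. Its log2 fold change was 0.49 in shCEBPB and 0.00 in A2780 OlaR (adjusted p = 0.982, limma). FAN1, a nuclease that the marked pair recruits, had means of 12.1, 8.46, 18.9 and 15.9 FPKM and was lower in both comparisons (-0.47 and -0.23), the second no longer called with libraries 1 to 3 alone (-0.08, adjusted p = 0.0606, limma). Across the 41 members other than FANCF, the SD within a group was between 2.01% (FANCC in A2780 OlaR) and 27.2% (BRCA2 in shCEBPB) of the group mean.

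Set side by side, 22 of the 42 members (52.4%) were lower in shCEBPB and higher in A2780 OlaR, against 26.1% of the 11603 genes tested in both comparisons. The 2 comparisons share no library, but they are not independent. The groups shCON and A2780 OlaR, nearly alike over all genes (r of group means 0.9961), stand on opposite sides of them, which favours opposite signs. The 22 included BRCA1, BARD1, BRCA2 and UIMC1 among the BRCA1 complexes, EME1, RMI2, TOP3A and SLX4 among the joint molecule genes, and FANCG, FANCL, FANCM and FANCD2 in the Fanconi pathway. In 6 members, RAD50, WRN, RAD51B, RAD52, MUS81 and FAN1, both differences were negative, 14.3% of the members against 15.9% of all genes. In 5 members, BLM, BRCC3, RAD51D, FANCA and FANCI, both were positive, 11.9% against 10.6%. Only RBBP8, BABAM1 and FANCF were higher in shCEBPB and lower in A2780 OlaR, 7.14% of the members against 23% of all genes.

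Ordered by group means, A2780 was the lowest group in 21 members, and in 16 of these no A2780 library overlapped the next group. Of the 11603 genes tested in both comparisons, A2780 was lowest in 31.1%, and in 19.4% without overlap. C13* shCEBPB was lowest in 14 members, 9 of them without overlap, a share of 33.3% near the 35.5% among all genes. C13* shCON was lowest in 6 members and A2780 OlaR in 1, PALB2, against 15.1% and 18.3% of all genes. At the other end, A2780 was highest in 10 members, 9 of them without overlap (such as MUS81, RAD51B, RAD52 and RBBP8), and shCEBPB in 7, of which BLM, PALB2, FANCA and USP1 were without overlap. Over all genes these 2 groups were highest in 37.8% and 26.3%, and in 24.4% and 13.1% without overlap. The highest place fell to A2780 OlaR in 13 members and to shCON in 12, and among these 25 RMI2 alone was apart from the next group. Among all genes A2780 OlaR was highest in 17.1% and shCON in 18.8%, and apart in 2.95% and 3.15%. The median level over the members was 13.6 FPKM in shCON, 10.8 in shCEBPB, 9.77 in A2780 and 15.2 in A2780 OlaR.

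The near identity of shCON and A2780 OlaR held for the members too. Over the 42 members the r of group means was 0.9868 between these 2 groups, against 0.8063 between shCON and shCEBPB and 0.6156 between A2780 and A2780 OlaR, given as a description over genes that share their libraries. The median absolute log2 difference of a member was 0.11 between shCON and A2780 OlaR, 0.52 between shCON and shCEBPB and 0.72 between A2780 and A2780 OlaR. In the limma fit of shCON against A2780 OlaR, 41 members were tested, since FANCF was under 1 FPKM in all of these libraries. Of these, 4 were higher in shCON and 13 lower, against 42.2% of all genes called (22.9% higher and 19.3% lower). No overlap was seen in 7 members, against 16.6% of all genes, and none differed 2-fold, against 0.589% of all genes. The largest differences were in RMI2 (-0.52), RBBP8 (-0.51) and FAN1 (-0.38), all lower in shCON, and in FANCB (0.35) and XRCC2 (0.34), both higher in it. In shCEBPB against A2780, the other pair of groups with low epithelial adhesion genes, 37 of 42 members passed, 21 higher and 16 lower, against 88.9% of all genes (37.4% higher and 51.5% lower). There 33 members did not overlap, against 72.3% of all genes, and 12 differed at least 2-fold, against 38.5%. MUS81 (-1.87), RAD51B (-1.44) and RAD52 (-1.37) had the largest negative differences there. Quantile normalization raised the median of all genes in that fit from -0.18 to -0.06 and gave 26 higher and 15 lower members.

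**Figure D4:**
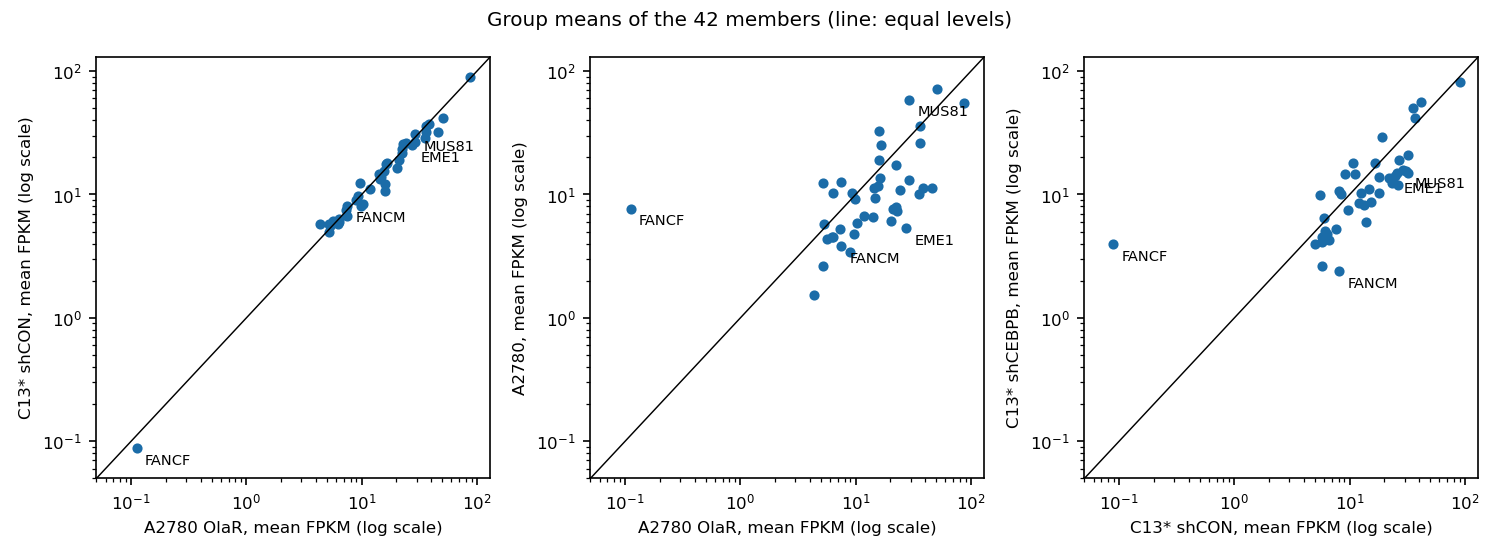
Mean FPKM of each member in pairs of groups (both axes logarithmic; 1 point a gene; the line marks equal levels): C13* shCON against A2780 OlaR, A2780 against A2780 OlaR, and C13* shCEBPB against C13* shCON. Points lie along the line in the first panel, with a median absolute log2 difference of 0.11, and are scattered in the others, where FANCF lies farthest from it.

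Other genes of the same pathways, 49 that were listed by function and are no members, were counted the same way. In shCEBPB 47 were tested, of which 14 were higher and 24 lower (80.9% called, against 84.7% of all genes), with a median of -0.18. In A2780 OlaR 48 were tested, of which 27 were higher and 13 lower (83.3% called, against 89.8%), with a median of 0.30. POLH, a polymerase that copies past damaged bases, had log2 fold changes of -1.35 and 1.34, and CDK12, a kinase needed for the transcription of long repair genes, had -0.96 and 0.98. POLD3, a subunit of the replicative polymerase delta that is used in repair synthesis, had -0.69 and 2.71. ZSWIM7, which helps the recombinase, was the lowest in shCEBPB (-1.75), and RPA1, the large subunit that coats single strands, the highest (1.24).

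Many recombination and Fanconi genes are known to be made in S and G2 phase, so 25 genes of proliferation were counted beside them. In A2780 OlaR all 25 were called, against 89.8% of all genes, with 24 higher (96% of them, against 40.1%) and 1 lower, and a median of 1.72, above the members' median of 0.44. In shCEBPB 7 were higher and 14 lower (84% called, against 84.7%), with a median of -0.17, against -0.37 for the members. Among the 14 lower in shCEBPB, MKI67 had log2 fold changes of -0.78 and 1.81, PCNA -0.56 and 2.30, and MCM4 -0.43 and 3.41. Among the 7 higher there, CCNE1 had 1.12 and -0.21, MCM7 0.71 and 2.335, and MCM2 0.58 and 2.17. The part of proliferation in the members' differences was not tested.

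Within groups the members also differed between libraries numbered 1 to 3 and those numbered 4 to 8, a division that the labels do not explain. In shCEBPB the median difference of a member was 0.24 on the log2 scale, against 0.02 over all genes. In 21 members, among them BRCA1, BRCA2, BLM and FANCM, each of libraries 1 to 3 was above each of the others, and in 6, BABAM1, MUS81, FANCA, FANCE, FANCF and FANCG, each was below. Among all genes that reached 1 FPKM in at least 3 libraries of the group, 27.2% were all higher and 25.9% all lower. The median GC content of the transcripts was 38.3% in the 21 and 54.7% in the 6. In A2780 OlaR the median difference was 0.20, with 24 members all higher and 7 all lower, against 31.9% and 24.9% of all genes. The median GC contents of these members were 38.96% and 53.76%. In A2780 the median was -0.08, with 2 members all higher (RAD52 and MUS81) and 8 all lower, against 11.3% and 9.32% of all genes. In shCON it was -0.01, with 0 members all higher and 1, PALB2, all lower, against 2.24% and 2.53%. The part of GC content in this division was not tested. For BRCA1 in A2780 OlaR, libraries 1 to 3 ran from 39.9 to 41.6 FPKM and libraries 4 to 8 from 31.2 to 33.4, while A2780 stayed under 11.4 throughout.

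In the RefSeq table of promoters, 35 of the 42 members were matched. CCAAT stood in the 250 bases before the start of 13 of the 35 (37.1%), on either strand, against 33% of all 27305 promoters. TTGCNNAA, the letters that C/EBP factors are known to bind, was found in 1 member, BARD1 (2.86%), against 9.13% of all promoters. An E2F site, TTTCCCGC or TTTGGCGC, was found in FANCC alone, against 1.96% of all promoters, and TTTGAA, the cell cycle homology element, in BRIP1, FANCC and UBE2T (8.57%), against 13.6%. These letters are a description of 1 window a gene, and other starts of the same genes were not searched. The 35 include UIMC1 and BRCA1, whose starts differ by 15839 and 82 bases between RefSeq and GENCODE. The paper reports C/EBPβ binding at BRCA1, BRIP1 and MCPH1 (its BRIT1) by ChIP-qPCR. It also reports lower activity of reporters with longer promoter regions of these genes after the knockdown. Binding was not tested here.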

How the data were processed

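Poly(A) RNA of 31 cell line libraries was sequenced by the authors as 150-base pairs and mapped to hg38 with TopHat. The deposited values are FPKM, 1 table for all libraries, made by the authors, whose methods say that reads were counted per gene with HTSeq; the tool that turned them into FPKM, the annotation and the strand setting are not given in the sources used here. The methods state only a minimum yield per sample, so the depth of each library is not given. From the smallest steps of 871 low genes, depth differed up to 1.38-fold between libraries. The submitters' processing notes also name FastQC and edgeR. Of 19225 rows, 4 with 2 repeated symbols were dropped. The members and gene lists were chosen with earlier results of these data known, and all 42 members are named; the 4 with the largest change in each direction of each comparison are given in full.

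Genes that reached 1 FPKM in at least the number of libraries of the smaller group were fitted with limma 3.58.1 (R 4.3.3; lmFit, eBayes with a trend) on log2(FPKM + 1), a pseudocount of 1, with only the 2 groups compared and no covariates; p-values were adjusted by Benjamini-Hochberg over all genes tested. The exact permutation test, two-sided on the absolute difference of means of log2 values, can give no p under 1.55e-04. On simulated data with 200 changed genes, the fit found 95.5% (shCEBPB against shCON, 12006 genes) and 99.5% (A2780 OlaR against A2780, 12458 genes). Of the calls, 4.5% and 4.78% were false. The simulated noise was independent between libraries, and far fewer genes changed than were called in the data. These rates may therefore not carry over to the data. Groups come from the labels. Gene positions, GC content and shared exons are from GENCODE 44, which matched 95.1% of the genes, and promoters from RefSeq. ABRAXAS1 and BABAM2 were matched by older symbols. Alternatives were other pseudocounts and filters, 3 scalings, 1 fit of all groups, a replicate block, subsets of libraries and a correction for GC content and length; leaving out C13* shCON replicate 1 was chosen after seeing the data.

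Marker lists were summed per library, in FPKM. Of 6 simple epithelial markers, 6 averaged at least 1 FPKM in shCON and in A2780 OlaR and 3 in shCEBPB and in A2780 (sums of 2320 to 2567, 2537 to 3055, 1776 to 2149 and 85.1 to 93.4). Of 6 squamous and basal markers, 6, 6, 1 and 1 did so in that order (2542 to 3089, 2570 to 3370, 85.2 to 171.8 and 0.416 to 1.87), with KRT5 and KRT6A at 0 in every A2780 library. Of 6 mesenchymal markers, 4, 3, 6 and 3 did so (47.4 to 55.0, 36.5 to 43.7, 355.7 to 384.5 and 858.1 to 899.2). Of 6 ovarian and Mullerian markers, 3, 2, 2 and 2 did so (35.7 to 41.9, 27.1 to 38.6, 996.1 to 1102 and 14.9 to 18.6), with EMX2 at 0 in shCON and A2780 OlaR. Of 4 fibroblast markers, 1, 1, 1 and 4 did so (2.98 to 3.63, 3.63 to 5.12, 12.3 to 18.9 and 35.5 to 38.3). Of 3 leukocyte markers, 1, 1, 1 and 2 did so (62.5 to 70.0, 37.5 to 45.3, 10.5 to 13.1 and 78.4 to 104.2), with CD3E at 0 throughout. Of 2 endothelial markers, 0, 1, 1 and 0 did so (0.386 to 0.722, 1.68 to 2.28, 0.932 to 1.38 and 0 to 0.0131).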

Additional observations from a re-analysis of the deposited data

Results flagged for a closer look

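Of 168 sets of 7 or 8 library values, 1 for each member and group, 3 held a library whose gap to the nearest other was wide for the range of its group, and chance alone gives about 1 in 20. FANCA in C13* shCON replicate 3 was at 17.9 FPKM, below the next library at 19.0. UBE2T in A2780 replicate 8 was at 67.0 FPKM, above the next at 57.0. FAN1 in A2780 replicate 7 was at 21.1 FPKM, above the next at 19.4.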

How the results depend on the processing

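With the filter at 5 FPKM, 39 of the 42 members were tested in each comparison. Under every alternative run on single members that tested them, 30 of 42 kept direction and side of the threshold in shCEBPB against shCON. In A2780 OlaR against A2780, 34 of 42 did so. The others were BRIP1, FANCB, FANCI, MCPH1, NBN, RAD51B, RAD51D, RAD54L, RMI1, UBE2T, WRN and XRCC2 in the first and FAN1, FANCE, MCPH1, NBN, PALB2, USP1, WRN and XRCC3 in the second, most often with libraries 1 to 3 or 4 to 8 alone or another scaling. The sign turned in MCPH1 in shCEBPB with libraries 1 to 3 alone (0.023), in WRN in A2780 OlaR with libraries 1 to 3 alone (0.083) and with the correction for GC content and length, with or without a replicate block (0.041), in PALB2 with libraries 1 to 3 alone (0.15) and in USP1 with libraries 4 to 8 alone (-0.14). The cause was not tested. Requiring a fold change of at least 2 left 3539 genes and 5 members (1 higher, 4 lower) in shCEBPB against shCON, 4446 genes and 15 members (12 higher, 3 lower) in A2780 OlaR against A2780, 0 members in shCON against A2780 OlaR, and 12 (7 higher, 5 lower) in shCEBPB against A2780. In shCON against A2780 OlaR, 2 members were higher with quantile normalization, with a replicate block or at an adjusted p under 0.01 (limma), 26 were called with libraries 1 to 3 alone (23 lower), and 26 with libraries 4 to 8 alone (14 higher).

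Libraries of the same replicate number did not deviate together within either comparison. Their mean r was -0.15 over 7 pairs in C13* and -0.23 over 8 pairs in A2780. Only 1 and 0 libraries were closest to their own number. In shCON, replicates 6 and 7 are the libraries numbered 7 and 8, and they were matched by replicate number. Whether libraries share a processing batch by number was not tested. With the replicate number as a block, 38 members (10 higher, 28 lower) and 9885 genes were called in shCEBPB against shCON, and 38 (29 higher, 9 lower) and 10960 genes in A2780 OlaR against A2780. Leaving out C13* shCON replicate 1 changed no member's call. Low FPKM limits the precision of FANCF in the groups where it is near 0, and the depth of each library is not given.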
